A study of Mus musculus with 46 samples.

Results

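The lipogenesis enzymes are the liver genes that turn carbohydrate into fat, and 10 of them were followed here: Acly, Me1, Acaca, Fasn, Thrsp, Elovl6, Scd1, Fads1, Fads2 and Gpam. They were chosen by gene symbol, and every probe that the array platform gives to one of these symbols was taken. This gave 11 probes, 2 of them for Me1 and 1 for each other gene, out of 25697 probes and 16593 gene symbols on the table. All 11 passed the filter on dim probes, which kept the 15082 probes that exceeded background in 1 mouse or more. Livers came from 46 male C57BL6/J mice, 1 array per mouse, all killed at 8 months of age after 6 months on their diets, which began at 2 months. The AL group (11 mice) ate freely, and the DR group (11 mice) was restricted by 40%. The Rapa group (12 mice) ate freely a diet with 14 ppm of rapamycin, an inhibitor of the kinase mTOR, and the Rapa + DR group (12 mice) had both. The study's supplement gives a significantly lower rapamycin level in Rapa + DR than in Rapa livers. Its main text calls these levels not significantly different. The part of the drug level in the results was not tested. The study's methods give the DR ration once as 60% and once as 40% of AL intake, and place the daily feeding of restricted mice at 3 pm. The hour of death is not given in the sources used here, so hours since the last meal and restriction cannot be told apart.

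In lipogenesis, citrate leaves the mitochondrion and is split to acetyl-CoA, which is carboxylated to malonyl-CoA and joined into palmitate with electrons from NADPH. Palmitate is then elongated, desaturated and esterified to glycerol. The pathway runs in fed hepatocytes. Insulin raises the genes through SREBP-1c (Srebf1), which LXR alpha (Nr1h3) also induces, and glucose raises them through ChREBP (Mlxipl). SREBP proteins are held in the endoplasmic reticulum by Scap and the Insig proteins until they are released for cleavage. mTOR complex 1 promotes the activity of SREBP-1c.

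RefSeq promoters (250 bases before the transcription start and 50 after it, GRCm38.p6) were held for 8 of the 10 genes, and those of 4 genes that turn up in the results below are shown. Acly and Thrsp both fell under DR, and Fasn and Elovl6 were the pair of genes that varied most closely together from mouse to mouse. Capitals mark matches, on either strand, to the NF-Y box CCAAT, the Sp1 box GGGCGG, the nuclear receptor half-site AGGTCA, the E-box CACGTG or a sterol regulatory element core TCACNCCAC.
Acly, chr11:100527951-100528250, minus strand: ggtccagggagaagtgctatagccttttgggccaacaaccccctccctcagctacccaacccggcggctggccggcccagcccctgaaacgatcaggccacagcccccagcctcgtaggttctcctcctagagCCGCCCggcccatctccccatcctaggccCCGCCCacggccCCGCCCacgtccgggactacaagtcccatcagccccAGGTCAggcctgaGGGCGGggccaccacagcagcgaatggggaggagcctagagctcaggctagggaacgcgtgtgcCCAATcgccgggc
Thrsp, chr7:97417501-97417800, minus strand: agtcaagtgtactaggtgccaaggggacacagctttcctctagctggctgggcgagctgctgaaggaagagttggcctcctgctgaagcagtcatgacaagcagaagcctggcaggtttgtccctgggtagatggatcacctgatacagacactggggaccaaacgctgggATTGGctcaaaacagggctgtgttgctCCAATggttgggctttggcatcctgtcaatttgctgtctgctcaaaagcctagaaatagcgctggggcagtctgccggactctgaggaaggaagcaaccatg
Fasn, chr11:120824498-120824797, minus strand: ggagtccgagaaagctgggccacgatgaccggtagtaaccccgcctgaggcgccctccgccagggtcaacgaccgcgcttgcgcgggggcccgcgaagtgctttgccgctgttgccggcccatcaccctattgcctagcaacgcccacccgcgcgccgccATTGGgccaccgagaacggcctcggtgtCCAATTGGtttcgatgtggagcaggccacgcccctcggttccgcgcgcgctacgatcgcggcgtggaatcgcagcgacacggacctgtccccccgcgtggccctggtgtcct
Elovl6, chr3:129532136-129532435, plus strand: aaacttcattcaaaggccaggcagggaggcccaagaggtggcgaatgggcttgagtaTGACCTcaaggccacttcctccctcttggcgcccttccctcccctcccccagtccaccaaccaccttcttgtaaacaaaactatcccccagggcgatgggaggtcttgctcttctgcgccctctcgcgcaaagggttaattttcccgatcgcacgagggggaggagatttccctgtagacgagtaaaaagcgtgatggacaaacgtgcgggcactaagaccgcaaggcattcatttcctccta
The Acly window held 4 Sp1 boxes, 1 NF-Y box and 1 half-site, the Fasn window 3 NF-Y boxes and the Thrsp window 2. In the Fasn window 2 of the NF-Y boxes, on opposite strands, share bases, so that they read as a single run of capitals. Elovl6 held 1 half-site and no other motif. Over the 10 promoters of the 8 genes, 5 held an NF-Y box, 4 an Sp1 box and 3 a half-site, and the E-box and the sterol regulatory element core had no match in any. Of all 32851 promoters of this length, 37.4% held an NF-Y box, 35.7% an Sp1 box, 16.3% a half-site, 7.15% an E-box and 1.24% the sterol regulatory element core. A match is a description of the letters in the window.

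Levels are given in log2 units of probe signal. The deposited z-scores, which give every array the same centre and the same spread, were multiplied by the mean SD of the arrays, so that a difference of 1 stands for a factor of 2 at a common spread. Levels of different probes cannot be set against each other. A probe was called at an adjusted p under 0.05 (limma, Benjamini-Hochberg over all 15082 probes) and a difference of group medians over 15%.

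Restriction alone lowered 3 of the 11 probes, those of Acly, Scd1 and Thrsp, and raised none. None of these calls was kept when arrays were centred but not rescaled. Among all tested probes 6.2% were lower and 10.5% higher in DR than in AL. Both shares were larger among the 6582 probes above background on every array, fitted alone, with 870 lower and 1334 higher. Rapamycin alone raised Gpam and lowered Fads2, 1 of 11 probes each way, where 8.32% of all probes were higher and 5.62% lower. Rapa + DR against AL had Me1 (probe 1) higher and Acly and Fads1 lower, against 17.1% and 9.57% of all probes, and the direction of Fads1 turned when arrays were centred but not rescaled to a common spread. Rapamycin added to restriction raised Thrsp alone of the 11 probes, and 1.79% of all probes were higher and 0.325% lower in Rapa + DR than in DR. Restriction added to rapamycin raised Fads2 and lowered Acly, against 11.2% and 5.75% of all probes. DR lay below Rapa in 4 probes (Acly, Scd1, Thrsp and Gpam) and above it in none, where 6.51% of all probes were higher and 4.21% lower. The interaction (Rapa + DR minus DR, less Rapa minus AL) was called for none of the 11, against 1.29% higher and 1.17% lower of all probes. By limma 2 of the 11 interactions, those of Thrsp and Acaca, had an unadjusted p under 0.05, and no alternative fit called any.

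Across the 11 probes the median change in DR against AL was -0.18, with 10 of 11 below 0. The members' median was -0.01 in Rapa against AL and -0.02 in Rapa + DR against AL. It was 0.26 in Rapa + DR against DR, 0.06 in Rapa + DR against Rapa and -0.37 in DR against Rapa. The median of all tested probes lay within 0.01 of 0 in all 6 comparisons. Every array was given the same centre, so that value is near 0 largely by construction and is no yardstick for the members. DR, Rapa and Rapa + DR were each set against the same AL mice. Likewise DR against AL, Rapa + DR against DR and DR against Rapa use the same DR mice. The members' medians therefore share samples and are not separate evidence. Acaca, Fasn, Elovl6 and Me1 (probe 2) were called in no comparison.

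**Figure D1:**
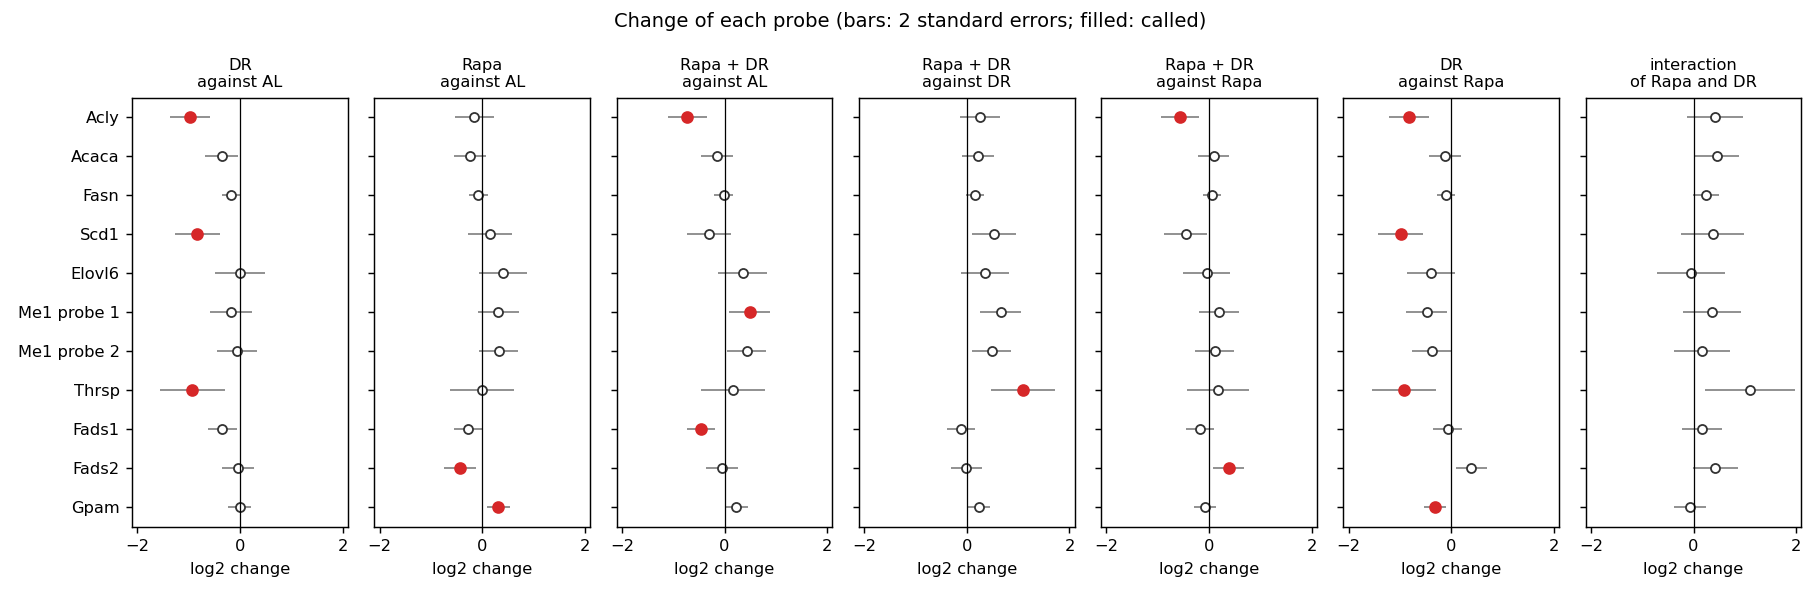
Log2 change of each lipogenesis probe (x axis) in the 6 comparisons and the interaction, with bars of 2 standard errors; filled points were called. DR against AL holds 3 filled points left of 0 (Acly, Scd1, Thrsp) and DR against Rapa 4, and the interaction holds none.

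Acly, ATP citrate lyase, makes the cytosolic acetyl-CoA from which fatty acids are built, and it responded in more comparisons than the other members. Its probe (ILMN_1240770) ran from 11.73 to 12.89 in AL mice with a median of 12.32. DR mice ran from 10.72 to 12.19 with a median of 11.24. All 11 DR mice lay below the AL median and 9 of them below the lowest AL mouse. The change was -0.98 ± 0.20 (SE), a 1.97-fold decrease (adjusted p = 0.000219). Rapa mice covered a wider range, from 11.21 to 13.11 around a median of 12.03, and did not differ from AL by the test (-0.16 ± 0.19, adjusted p = 0.653). Rapa + DR mice ran from 10.85 to 12.24 with a median of 11.67. They lay below AL by -0.72 ± 0.19 (adjusted p = 0.00249) and below Rapa by -0.57 ± 0.19 (adjusted p = 0.0205), and all 12 were under the AL median. Between DR and Rapa + DR the difference was 0.26 ± 0.19 (adjusted p = 0.517), so the order was DR, Rapa + DR, Rapa and AL, with only the middle step past the test. DR lay below Rapa by -0.82 ± 0.19 (adjusted p = 0.00178). Each of these 4 calls was kept whichever single mouse was left out, and none was kept when the arrays were centred and not divided by their SD, where the change in DR against AL was -0.63 (adjusted p = 0.0922). The other 9 of 10 alternative fits kept 3 of the calls, but that of Rapa + DR against Rapa was kept in 7 of 10 and ended with quantile normalization, alone or after normexp, too (adjusted p up to 0.771).

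Me1, cytosolic malic enzyme, supplies NADPH, and it had its highest median level with both treatments for 1 of its 2 probes. Probe 1 (ILMN_2774690) had medians of 8.69 in AL (range 7.96 to 9.91), 8.74 in DR (7.93 to 8.89), 8.88 in Rapa (8.17 to 9.92) and 9.26 in Rapa + DR (8.91 to 9.54). Every Rapa + DR mouse lay above every DR mouse. Such a separation was found in 9 of the 15082 tested probes, or 0.0597%. The difference was 0.66 ± 0.20, 1.58-fold, with an adjusted p of 0.0552, which missed the threshold in the fit that shares 1 spread over the 4 groups. Of 10 alternative fits 5 called it, with adjusted p values from 0.0272 to 0.104 over the 10. Against AL the change was 0.49 ± 0.20 (adjusted p = 0.0459), a call that was lost in 16 of the 46 fits with 1 mouse left out, with an adjusted p of up to 0.10, and in 6 of the 10 alternative fits, with one of up to 0.343. Probe 2 (ILMN_2937261) had medians of 7.67 in AL (7.30 to 9.08), 7.89 in DR (7.07 to 8.43), 8.37 in Rapa (7.33 to 9.45) and 8.26 in Rapa + DR (7.93 to 8.86). It changed by 0.43 ± 0.19 in Rapa + DR against AL (adjusted p = 0.0708) and by 0.49 ± 0.19 against DR (adjusted p = 0.158). The differences of the means had the same sign for both probes in each of the 6 comparisons, but the medians of Rapa and Rapa + DR moved in opposite directions, up in probe 1 and down in probe 2.

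Acaca and Fasn carry out the central steps of synthesis, and neither was called in any comparison. Acaca, acetyl-CoA carboxylase, makes malonyl-CoA and is the rate-limiting enzyme. Its probe (ILMN_1258600) had medians of 10.27 in AL (9.43 to 10.72), 9.98 in DR (9.19 to 10.27), 9.97 in Rapa (9.17 to 10.49) and 10.14 in Rapa + DR (9.34 to 10.53). The difference of DR from AL was -0.36 ± 0.16, with 10 of 11 DR mice under the AL median (adjusted p = 0.107). Fasn, fatty acid synthase, joins malonyl units into palmitate. Its probe (ILMN_2874104) lay near background, being above it on 26 of the 46 arrays. No background was subtracted, so its changes may understate those of the RNA, and how well the probe reports the RNA was not tested. Medians were 6.69 in AL (6.39 to 7.33), 6.55 in DR (6.27 to 6.83), 6.67 in Rapa (6.39 to 7.10) and 6.71 in Rapa + DR (6.34 to 7.07). The groups overlapped throughout, and the interval of 2 standard errors around the change of DR against AL ran from -0.36 to 0.01.

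Thrsp (Spot 14), a nuclear protein that rises with lipogenesis in liver and mammary gland, had the largest change of the 11 probes between the restricted groups. Its probe (ILMN_1256775) ran from 10.07 to 12.08 in AL (median 11.51), from 8.72 to 11.57 in DR (10.48), from 9.91 to 12.51 in Rapa (11.23) and from 10.25 to 12.22 in Rapa + DR (11.69). DR mice 10 and 11 were the lowest of all 46 mice. DR against AL gave -0.93 ± 0.32 (adjusted p = 0.0296), with 10 of 11 DR mice under the AL median. Rapa + DR against DR gave 1.10 ± 0.31, 2.14-fold (adjusted p = 0.0382), and 8 of 12 Rapa + DR mice lay above the highest DR mouse. DR lay below Rapa by -0.92 ± 0.31 (adjusted p = 0.0369). Its interaction was 1.11 ± 0.44, the highest of the 11 probes, and missed the threshold (adjusted p = 0.155), so that the effect of rapamycin was not shown to differ between fed and restricted mice. Leaving out 1 mouse ended the call against AL in 5 of 46 fits (AL 2, 3 and 9 and DR 10 and 11, adjusted p up to 0.0678), that against Rapa in 10 and that of Rapa + DR against DR in 11. Centring only also ended the call against AL (-0.65, adjusted p = 0.162), which the other 9 alternative fits kept. The call against Rapa was kept in 5 of 10 alternative fits (adjusted p up to 0.189), and rapamycin added to restriction kept its call in 7 of 10 (adjusted p up to 0.148).

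**Figure D2:**
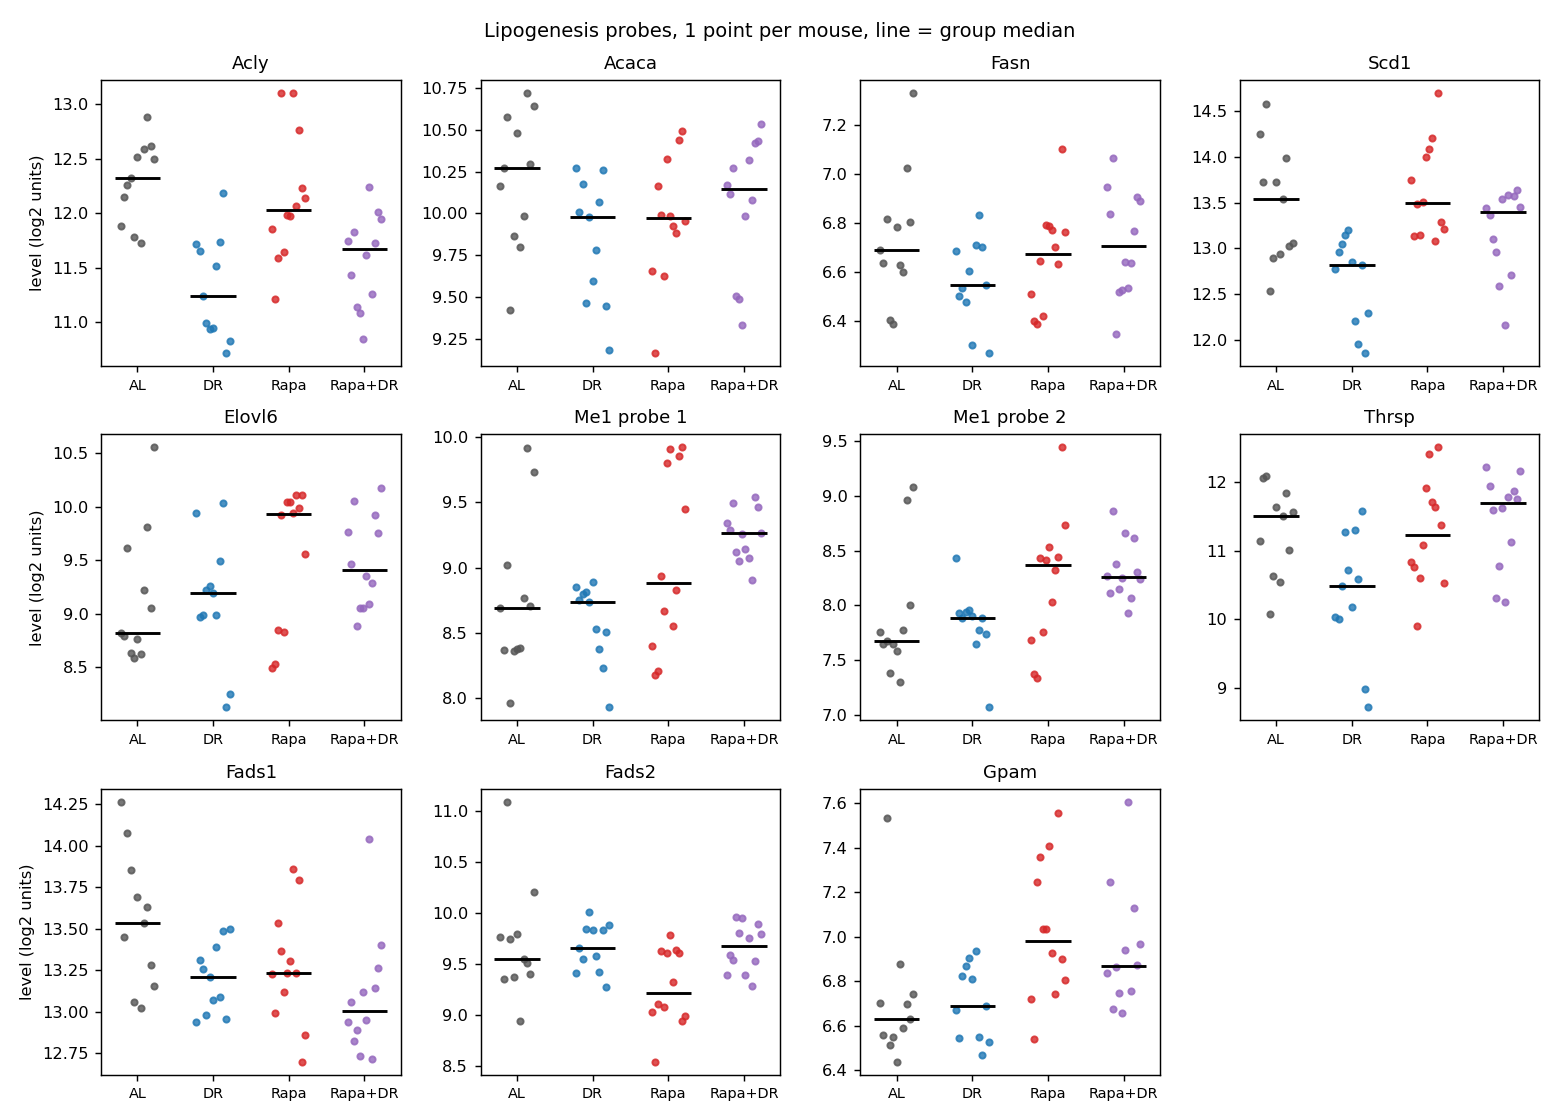
Level of each lipogenesis probe (y axis, log2 units of signal at a common spread) in each mouse of the 4 groups (x axis), 1 point per mouse, with a line at the group median; points stand in order of mouse number and the y axes differ between panels. All Rapa + DR mice lie above all DR mice for Me1 probe 1 (8.91 to 9.54 against 7.93 to 8.89), while the groups overlap for Fasn, Acaca and Elovl6.

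Elovl6 lengthens palmitate to stearate, and Scd1 (stearoyl-CoA desaturase) turns stearate into oleate, the main fatty acid of stored triglyceride. Scd1 (ILMN_1237375) ran from 12.53 to 14.58 in AL (median 13.54), from 11.85 to 13.20 in DR (12.82), from 13.08 to 14.70 in Rapa (13.50) and from 12.16 to 13.64 in Rapa + DR (13.40). All 11 DR mice were under the AL median, and the decrease was -0.83 ± 0.22, 1.78-fold (adjusted p = 0.00461). Against Rapa the decrease was -0.99 ± 0.22, with 9 of 11 DR mice below the lowest Rapa mouse (adjusted p = 0.000839). Both calls were kept whichever mouse was left out and lost when arrays were centred only, with changes of -0.38 (adjusted p = 0.280) and -0.49 (adjusted p = 0.159). Scd1 in Rapa + DR mice was 0.53 ± 0.22 above DR (adjusted p = 0.175) and -0.30 ± 0.22 from AL (adjusted p = 0.269), and the sign of the second value turned with quantile normalization and with centring only.

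Elovl6 (ILMN_2614752) spread widely and was not called. It ran from 8.58 to 10.56 in AL (median 8.82), from 8.13 to 10.04 in DR (9.19), from 8.49 to 10.11 in Rapa (9.93) and from 8.89 to 10.18 in Rapa + DR (9.41). The Rapa mice lay in separate ranges, 4 of 12 between 8.49 and 8.85 and the other 8 between 9.56 and 10.11. DR mice had a gap of like width, with 2 of 11 at 8.13 and 8.25 and the others from 8.97 upward, and in AL mice a single mouse stood at 10.56 and the next at 9.81. The group median of Rapa was above that of AL, while the difference of the means was 0.40 ± 0.24 (adjusted p = 0.267). All 12 Rapa + DR mice lay above the AL median, with a difference of the means of 0.35 ± 0.24 (adjusted p = 0.235).

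The delta-5 and delta-6 desaturases, Fads1 and Fads2, make long polyunsaturated fatty acids. Fads1 (ILMN_2607786) ran from 13.02 to 14.27 in AL (median 13.53), from 12.94 to 13.50 in DR (13.21), from 12.70 to 13.86 in Rapa (13.23) and from 12.72 to 14.04 in Rapa + DR (13.004). It lay -0.46 ± 0.14 below AL in Rapa + DR (adjusted p = 0.00743), with 11 of 12 mice under the AL median, but the change was -0.16 (adjusted p = 0.206) after quantile normalization and 0.13 (adjusted p = 0.488) with arrays centred only. Fads2 (ILMN_2713071) was lowest with rapamycin and free feeding. It ran from 8.95 to 11.10 in AL (median 9.56), from 9.28 to 10.01 in DR (9.66), from 8.54 to 9.79 in Rapa (9.22) and from 9.28 to 9.96 in Rapa + DR (9.68). Rapa lay -0.43 ± 0.15 from AL (adjusted p = 0.0426), with only 7 of 12 Rapa mice under the AL median. The 11.10 of AL mouse 3 entered that difference. Without that mouse it was -0.29 (adjusted p = 0.0988). Rapa + DR lay 0.38 ± 0.15 above Rapa (adjusted p = 0.0477), with all 12 mice above the Rapa median, and DR lay 0.39 ± 0.15 above Rapa (adjusted p = 0.0802). The calls of Fads2 against AL and of Rapa + DR against Rapa were lost in 11 and 26 of the 46 fits with 1 mouse left out, and each was kept in 3 of 10 alternative fits, with adjusted p values up to 0.179 and 0.107.

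Gpam, mitochondrial glycerol-3-phosphate acyltransferase, commits fatty acyl-CoA to triglyceride. Its probe (ILMN_2655954) was also dim, above background on 36 of 46 arrays, and ran from 6.44 to 7.53 in AL (median 6.63), from 6.47 to 6.93 in DR (6.69), from 6.54 to 7.56 in Rapa (6.98) and from 6.66 to 7.61 in Rapa + DR (6.87). Rapa was 0.31 ± 0.11 above AL, with 11 of 12 mice over the AL median (adjusted p = 0.0437), and DR was -0.31 ± 0.11 from Rapa (adjusted p = 0.0475). All 12 Rapa + DR mice lay above the AL median too, at a difference of 0.23 ± 0.11 (adjusted p = 0.0909). Leaving out 1 mouse ended both calls in 15 and 25 of 46 fits, with adjusted p values up to 0.0941 and 0.102. Each call was kept in 3 of 9 alternative fits, with adjusted p values up to 0.152 and 0.287.

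Within a group the members varied together from mouse to mouse. After each group's mean was taken off, 43 of the 45 pairs of genes (Me1 by probe 1) correlated positively over the 46 mice, with a median Pearson's r of 0.40. Of these pairs 24 passed both the Pearson and the Spearman permutation test (100000 resamples of mice within groups, two-sided, Benjamini-Hochberg over the 45 pairs). The share of pairs of other genes that would pass was not worked out. Fasn and Elovl6 were the closest pair, with r = 0.79 and rho = 0.79 (permutation p = 1e-05 for each, the smallest these resamples can give, adjusted p = 7.5e-05 for each), and r = 0.75 without the 2 mice farthest in Fasn. Within groups r was 0.90 in AL, 0.56 in DR, 0.81 in Rapa, with 0.91 in Rapa + DR. The Fasn probe lay near background, which limits what its correlations can show. Acaca correlated with Elovl6 (r = 0.73) and with Fasn (r = 0.72), and Elovl6 with Me1 (r = 0.69). Scd1 correlated most with Thrsp (r = 0.66) and Fads1 (r = 0.56), and less with Fasn (r = 0.15, permutation p = 0.34, adjusted p = 0.382). Fads1 passed with 3 of 9 partners and Gpam with 1, and the lowest r was -0.12, between Me1 and Fads1, which became 0.34 with quantile normalization and 0.71 with centring only. Scd1 and Fasn likewise came to 0.50 and 0.47 under those scalings. The median r of the pairs was 0.46 in AL, 0.27 in DR, 0.48 in Rapa, with 0.43 in Rapa + DR, and these differences were not tested.

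**Figure D3:**
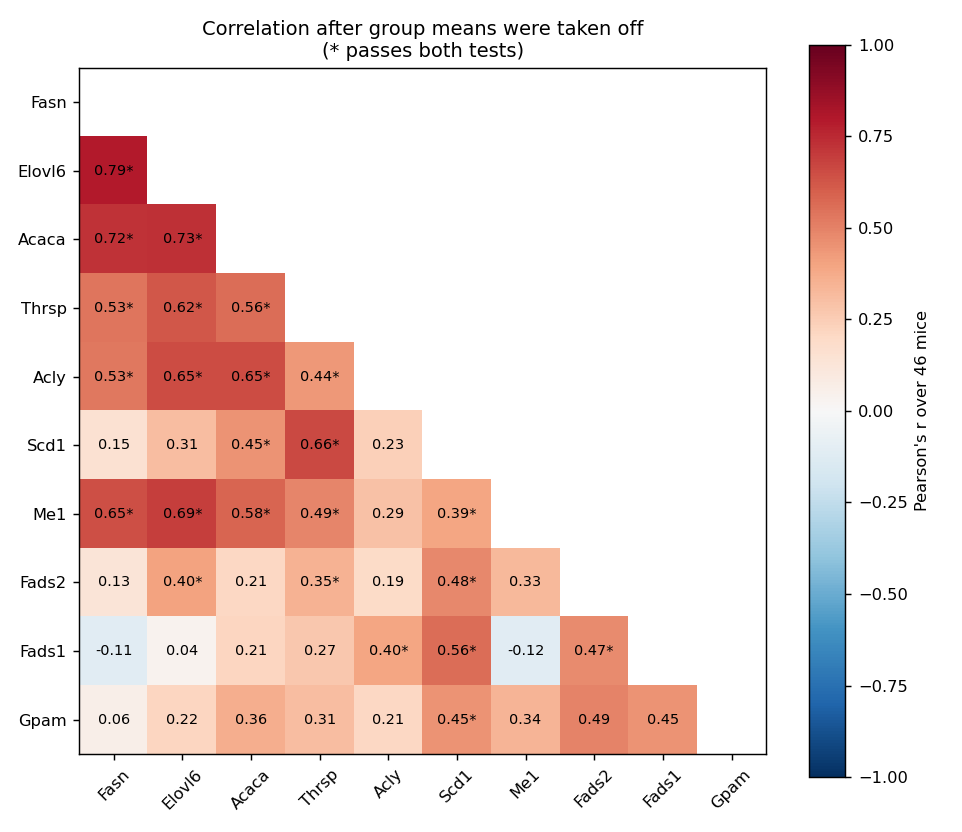
Pearson's r of each pair of lipogenesis genes over 46 mice after group means were taken off (colour and number); an asterisk marks the 24 pairs that passed both permutation tests. Fasn, Elovl6 and Acaca form the darkest corner (0.72 to 0.79), and Fads1 and Gpam have pale cells with Fasn. The probes of Fasn and Gpam were dim.

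Single members varied with the arrays' technical measures in both directions. With the SD of the array's log2 signals within groups 5 of the 10 genes had r above 0, over 20 relations of single genes with this SD or with the array's background level that were chosen after the data were seen. Fads1 alone passed both permutation tests, with r = -0.73 and rho = -0.64 (permutation p = 1e-05 for each, adjusted p = 0.0002 for each) and r = -0.64 without the 2 farthest arrays. With the array's SD as a covariate its change in Rapa + DR against AL was -0.19 (adjusted p = 0.16). Fasn (r = 0.48, permutation p = 0.00137, adjusted p = 0.0137), Me1 (r = 0.46, permutation p = 0.00231, adjusted p = 0.0154) and Elovl6 (r = 0.42, permutation p = 0.00455, adjusted p = 0.0227) passed for r and missed for rho (adjusted p = 0.054 for each). No gene passed both tests with the background level, where r ran from -0.41 (Fads1) to 0.15 (Me1). The part of the array's SD in the correlations between members was not tested. The mean of the members' standardized values had r = 0.01 and rho = 0.03 with the SD of the array (permutation p = 0.933 and 0.868, adjusted p = 0.933 and 0.868), and r = -0.18 and rho = -0.16 with its background level (permutation p = 0.255 and 0.304, adjusted p = 0.51 and 0.608). Without the 2 arrays farthest from the median these r were 0.07 and -0.22. Mice at the ends of a group were high or low in many members at once. AL mouse 3 was the highest AL mouse in 4 of the 10 genes, Rapa mouse 2 the lowest in 5, and DR mice 10 and 11 the lowest in 4 each.

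The 10 other genes whose probes followed the members' mean most closely, of 10509 genes, were Acss2 (r = 0.76), Pdk1 (0.76), Aqp8 (0.76), Pklr (0.74), Tlcd1 (0.70), Aacs (0.69), Tmem184b (0.69), Elovl5 (0.67), Pltp (0.67) and Acsm5 (0.67), each over 46 mice with group means removed. Acss2 makes acetyl-CoA from acetate, Pklr is liver pyruvate kinase and Elovl5 elongates polyunsaturated fatty acids. Their group changes went both ways. Aqp8, an aquaporin of hepatocytes, fell in DR (-1.88, adjusted p = 1.8e-06) and Rapa + DR (-1.67, adjusted p = 3.58e-06) against AL. Elovl5 (-0.61, adjusted p = 0.00837) and Pltp, the phospholipid transfer protein (-0.62, adjusted p = 0.0454), fell in Rapa + DR against AL, calls that 7 and 5 of 10 alternative fits kept. Pdk1, a kinase of pyruvate dehydrogenase, rose by 0.80 in DR (adjusted p = 3.94e-05) and by 1.36 in Rapa + DR (adjusted p = 2.01e-10) against AL, and Acsm5, a mitochondrial acyl-CoA synthetase, by 0.51 (adjusted p = 8.10e-05) and 0.78 (adjusted p = 1.09e-08).

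Of the regulators, Srebf1 ran from 8.31 to 9.58 in AL (median 8.72), from 7.47 to 9.06 in DR (8.17), from 7.54 to 9.73 in Rapa (8.69) and from 7.61 to 9.39 in Rapa + DR (8.94). It fell in DR by 0.66 ± 0.23 on the log2 scale (adjusted p = 0.0334, lost in 7 of 46 fits with 1 mouse left out and in 3 of 10 alternative fits) and was not called in Rapa or Rapa + DR. Mlxipl, which encodes ChREBP, fell in DR against AL (-0.53 ± 0.16, adjusted p = 0.0123, lost in 1 of 10 alternative fits). It also fell in Rapa + DR (-0.40 ± 0.15, adjusted p = 0.0335), a call lost in 9 of 46 fits with 1 mouse left out and in 2 of 10 alternative fits. Mlxipl was higher in Rapa than in DR or Rapa + DR (0.91 and 0.79 apart, adjusted p = 2.2e-05 and 8.96e-05). Nr1h3 was lower than in AL in DR (-0.43, adjusted p = 7.57e-05), Rapa (-0.25, adjusted p = 0.0209) and Rapa + DR (-0.68, adjusted p = 4.98e-09), and all 12 Rapa + DR mice lay below the AL median. The call in Rapa was lost in 3 of 10 alternative fits (adjusted p up to 0.095). That in DR was lost in 1, with centring only (adjusted p = 0.283). Insig2, which retains SREBP in the endoplasmic reticulum, was lower in DR (-0.90 ± 0.18, adjusted p = 0.000191) and Rapa + DR (-1.09 ± 0.17, adjusted p = 2.75e-06) and higher in Rapa (0.74 ± 0.17, adjusted p = 0.00225). Scap fell in DR (-0.31, lost in 1 of 10 alternative fits) and Rapa (-0.35) and Rxra, the partner of LXR, in Rapa (-0.43). Of the 14 tested genes of 18 on this list, 2 were higher and 5 lower in DR, 1 and 3 in Rapa and 3 and 3 in Rapa + DR, each against AL. Among all probes 10.5% were higher and 6.2% lower for DR, 8.32% and 5.62% for Rapa, and for Rapa + DR 17.1% and 9.57%. These shares include dim probes. Of the 6582 probes above background on every array, fitted alone, 1334 were higher and 870 lower for DR. For Rapa these were 1033 and 854, and for Rapa + DR 1803 and 1256. Whether the list departs from either set of shares was not tested. None of the list was called in Rapa + DR against DR, where 1.79% and 0.325% of all probes were.

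**Figure D4:**
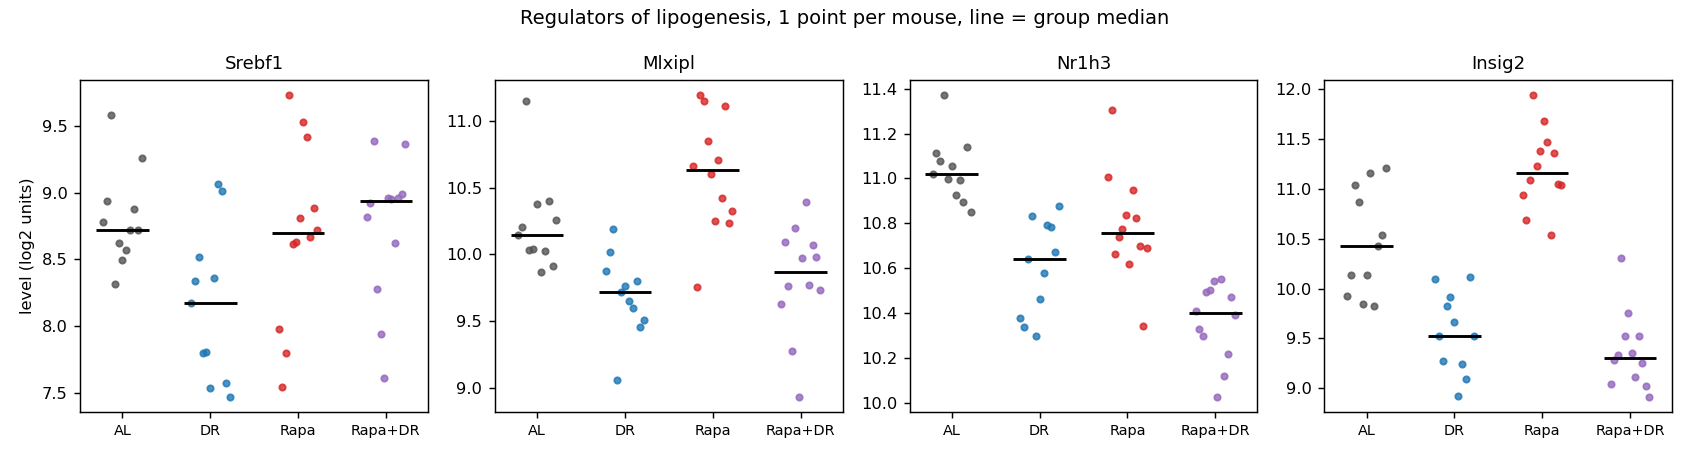
Level of 4 regulators of lipogenesis (y axis, log2 units of signal at a common spread) in each mouse of the 4 groups (x axis), with a line at the group median. The median of Insig2 is 10.42 in AL, 9.53 in DR, 11.16 in Rapa, with 9.31 in Rapa + DR, and that of Nr1h3 is lower than in AL in the other 3 groups.

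Srebf1 and Mlxipl each varied with some of the members from mouse to mouse, and Acly and Acaca passed with both. Over 20 relations, chosen after the data were seen, 5 of 10 with Srebf1 and 4 of 10 with Mlxipl passed both permutation tests. How often relations with other genes would pass was not worked out. Srebf1 correlated with Acly (r = 0.75, rho = 0.72), Elovl6 (r = 0.71, rho = 0.70), Acaca (r = 0.65, rho = 0.60), Fasn (r = 0.62, rho = 0.68) and Thrsp (r = 0.48, rho = 0.48). Without the 2 mice farthest in Srebf1 these r were 0.70, 0.69, 0.56, 0.60 and 0.51. With Scd1, r was 0.15 (permutation p = 0.329, adjusted p = 0.387). Mlxipl correlated with Gpam (r = 0.57, rho = 0.42), Acaca (r = 0.55, rho = 0.48), Fads1 (r = 0.47, rho = 0.46) and Acly (r = 0.43, rho = 0.38), and with Fasn r was 0.09 (permutation p = 0.558, adjusted p = 0.587). Adjusted p values of the 9 relations were at most 0.009 for r and 0.0256 for rho. In AL mice alone the r of Srebf1 with Acly was 0.14, against 0.89 in DR, 0.81 in Rapa, with 0.85 in Rapa + DR, a difference that was not tested.

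The steps around the pathway were counted on lists, to be read against the shares of all tested probes called higher and lower, against AL 10.5% and 6.2% for DR, 8.32% and 5.62% for Rapa, and for Rapa + DR 17.1% and 9.57%. List genes stand by their brightest probe, and these shares were larger among probes above background on every array. On lists this short 1 gene is a large share, and no list is called particular from its count. In glycerolipid synthesis 2 of 17 tested genes were higher and 3 lower in DR than in AL, with Lpin1 (a phosphatidate phosphatase) higher by 2.47 (adjusted p = 3.43e-13) and Agpat2, an acyltransferase downstream of Gpam, lower by -0.88 (adjusted p = 2.81e-08). The same list had 2 higher and 1 lower in Rapa and 4 and 3 in Rapa + DR. Among other elongation, desaturation and synthesis steps 1 of 16 genes was higher and 5 lower in DR, 0 and 2 in Rapa and 2 and 6 in Rapa + DR, with the elongase Elovl3 at -1.85 in DR (adjusted p = 1.09e-06) and -2.12 in Rapa + DR (adjusted p = 1.54e-08). NADPH supply had 0 of 5 genes higher and 1 lower in DR (Taldo1, -0.57), 1 and 0 in Rapa and 2 and 1 in Rapa + DR. There Idh1, which also makes cytosolic NADPH, rose by 1.08 in Rapa (adjusted p = 0.000106) and 0.85 in Rapa + DR (adjusted p = 0.000468), and Mdh1, which makes the malate that malic enzyme uses, by 0.68 in Rapa + DR (adjusted p = 2.04e-05). Glucose entry and glycolysis had 3 of 10 genes higher and 2 lower in DR, 3 and 1 in Rapa and 3 and 3 in Rapa + DR. In each of these groups the glucose transporter Slc2a2 and the pyruvate dehydrogenase subunit Pdhb rose, and Slc25a1, the mitochondrial citrate carrier, fell in DR (-0.58), Rapa (-0.52) and Rapa + DR (-0.76). Cholesterol synthesis had 1 of 11 genes higher and 4 lower in DR, 3 and 0 in Rapa and 2 and 4 in Rapa + DR. Hmgcs1 lay at -0.98 in DR and -1.35 in Rapa + DR, while Cyp51 was higher in all 3 groups. Fatty acid oxidation, which runs opposite to synthesis, had 5 of 8 genes higher and none lower in DR, 2 and 1 in Rapa and 5 and 3 in Rapa + DR.

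The spread among the mice of a group is given as a description and was not tested. Me1 probe 1 had an SD of 0.60 in AL and 0.69 in Rapa but 0.30 in DR and 0.19 in Rapa + DR, and Fads2 an SD of 0.56 and 0.38 against 0.24 and 0.23. Without AL mouse 3, at 11.10, the SD of Fads2 in AL was 0.34. The SD was lower in both restricted groups than in their freely fed counterparts for 6 of the 11 probes (54.5%), where 42.1% of all tested probes showed this. Thrsp ran the other way without rapamycin, with an SD of 0.66 in AL and 0.91 in DR.

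**Figure D5:**
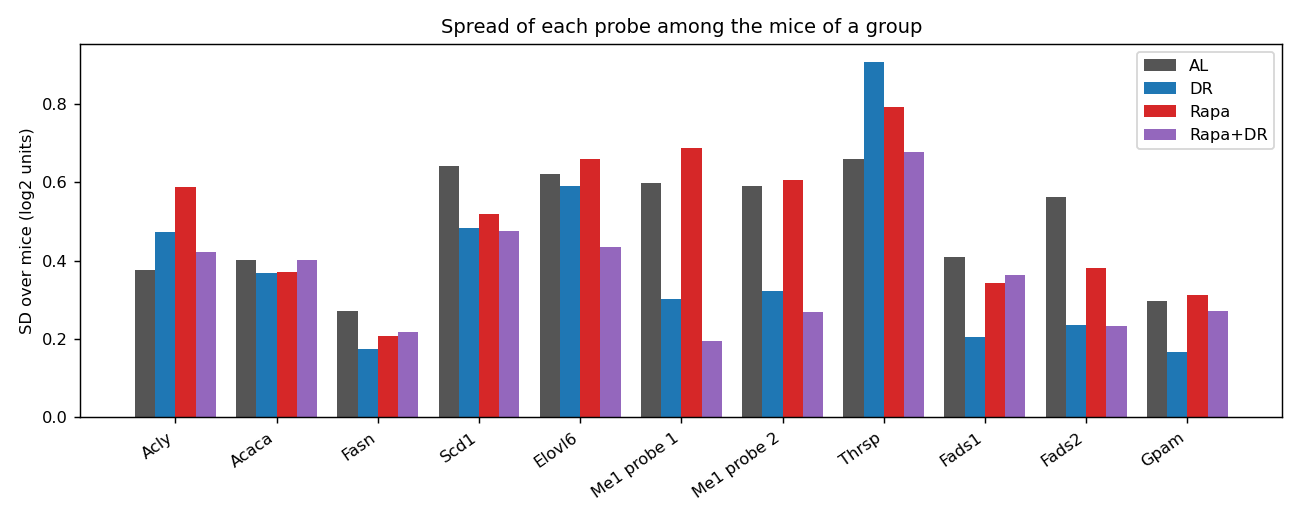
SD over mice (y axis, log2 units, bars from 0) of each lipogenesis probe in the 4 groups. Bars of DR and Rapa + DR are lower than those of AL and Rapa for Me1 and Fads2, and not for Acly.

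The arrays themselves differed between groups. The SD of the log2 signals averaged 1.28 in AL, 1.38 in DR, 1.28 in Rapa, with 1.41 in Rapa + DR, and the z-scores divide by it. The background level averaged 85.1 in AL, 87.2 in DR, 79.6 in Rapa, with 75.2 in Rapa + DR. Within Rapa + DR it ran from 80.1 to 83.8 in mice 1 to 6 and from 67.0 to 73.0 in mice 7 to 12. Background level and treatment thus went together in part, and the step within Rapa + DR was not tested. In a piece of liver, fewer cells of a type and less RNA per cell cannot be told apart. Of the hepatocyte markers 5 of 6 were tested, Alb, Apoa1 and Ttr among them, with summed log2 levels of 60.9 to 69.1 in AL, 61.1 to 67.9 in DR, 61.0 to 67.7 in Rapa and 60.8 to 69.5 in Rapa + DR. Against AL the median change of these 5 was -0.39 for DR, -0.12 for Rapa, and for Rapa + DR -0.28, beside -0.18, -0.01 and -0.02 for the lipogenesis probes. Alb was called higher in DR (0.19) and Apoa1 lower in Rapa + DR (-0.73), and their part in the results was not tested. Adipocytes also make these enzymes, and 3 of 6 adipocyte markers were tested. Their summed signal ran from 277 to 459 in AL, 257 to 292 in DR, 255 to 434 in Rapa and 252 to 294 in Rapa + DR. Cidec, a lipid droplet protein that fatty hepatocytes also express, was lower than in AL in DR (-0.51, adjusted p = 0.0111) and Rapa + DR (-0.49, adjusted p = 0.00714), and the part of adipocytes in the results was not tested. The Kupffer cell marker Clec4f was lower than in AL in DR (-0.54), Rapa (-0.61) and Rapa + DR (-0.70), as were the red cell gene Alas2 in DR (-1.04) and Rapa + DR (-1.15) and the pancreas gene Cela1 in DR (-0.64) and Rapa + DR (-0.75). The tested markers of Kupffer cells (4 of 7), endothelial cells (6 of 6), stellate cells (6 of 6), bile duct cells (2 of 5), pancreas (3 of 5), T and B cells (5 of 5) and red cells (2 of 4) gave 1, 0, 0, 0, 1, 0 and 1 called lower in DR against AL and none higher. In Rapa against AL the Kupffer marker above and the endothelial markers Stab2 (-0.41) and Clec4g (-0.33) were called, all lower. In Rapa + DR against AL the Kupffer, adipocyte, red cell and pancreas genes above were called lower, as was Clec4g (-0.37), while the endothelial marker Tek (0.44) and the pancreas marker Amy2a5 (0.36) were called higher. The part of these cells in the results was not tested.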

How the data were processed

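Liver RNA of 46 mice was hybridized to Illumina bead arrays. The authors took log2 signals, subtracted the mean of each array and divided by its SD, and the deposited score of a probe is this z-score. Another 92 columns carry sample numbers without group and were not used here. The SD of each array was recovered from the even spacing of the scanner's signals, and z-scores were multiplied by the mean SD (1.34) with the mean log2 signal (7.05) added. No background was subtracted. A background distribution fitted to the dim signals of each array set the limit (upper tail 0.02), and probes above it on at least 1 array were tested. The groups' means were set against each other in R 4.3.3 with limma 3.58.1 (lmFit, eBayes, 1 mean per group, 1 spread per probe). Calls needed an adjusted p under 0.05 and a median change over 15%, an interaction the adjusted p alone. Correlations and figures used Python 3.11.15, NumPy 2.4.6, SciPy 1.17.1 and matplotlib 3.10.9. The limma fit was tried on simulated data for DR against AL, and the other steps were not. The number of arrays limits the precision, and mice are the replicates. A list gene with several probes was read from its brightest probe on average, except for the members, whose probes are all given. Named genes were the members, up to 3 called genes with the largest change per list and comparison, and the 10 genes most like the members, and the other regulators and markers were chosen after their values were seen. The members, lists and tests were chosen with earlier results of these data known. Alternatives were other normalizations, filters, weights, covariates, thresholds and a block, and, added after the arrays were seen, the array SD as a covariate and each mouse left out.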

Additional observations from a re-analysis of the deposited data

Results flagged for a closer look

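The effect of rapamycin differed between restricted and freely fed mice for 5 of the 81 tested genes on the lists around lipogenesis. This was the interaction of the fit over all 15082 probes. The 5 genes were 6.17%, 2 higher and 3 lower, where 1.29% and 1.17% of all probes were called. All 5 were read from probes above background on all 46 arrays. Of the 6582 probes above background on every array, fitted alone, 173 were called higher and 183 lower. That is a larger share than of all probes and close to that of the lists, so the count is no result about the lists. Whether the lists exceed the share of probes as bright was not tested. No interaction of the 11 lipogenesis probes passed the threshold, the highest being that of Thrsp at 1.11 (adjusted p = 0.155). Insig2 had an interaction of -0.93 ± 0.25 (adjusted p = 0.0324), with rapamycin raising it by 0.74 in freely fed mice and a difference of -0.19 in restricted mice. Scap had 0.55 ± 0.15 (adjusted p = 0.0336) and Rxra 0.40 ± 0.10 (adjusted p = 0.0223), both lower with rapamycin in freely fed mice. Cyp51, of cholesterol synthesis, had -1.06 ± 0.28 (adjusted p = 0.0336), and Acadm, of fatty acid oxidation, -0.80 ± 0.19 (adjusted p = 0.0158). With centring only all 5 missed the threshold (adjusted p up to 0.253), and Scap and Cyp51 did so with no filter on dim probes as well. The interaction of Insig2 missed the threshold without AL 5, AL 6 or AL 8, with adjusted p values up to 0.0534. The study's supplement gives less rapamycin in Rapa + DR than in Rapa livers, and its part in these interactions was not tested.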

How the results depend on the processing

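Counts of called lipogenesis probes, of 11, moved with several settings. Centring the arrays without rescaling left 0 in DR against AL (3 as reported), 0 in Rapa against AL (2), 1 in Rapa + DR against AL (3) and 2 in DR against Rapa (4), and 16 of the 20 regulator relations passed in place of 9. Quantile normalization, alone or after normexp, gave 0 in Rapa against AL, 1 in Rapa + DR against AL, 3 in Rapa + DR against DR (1 as reported) and 0 in Rapa + DR against Rapa (2). With no filter on dim probes the counts were 0 in Rapa against AL, 0 in Rapa + DR against DR, 1 in Rapa + DR against Rapa and 2 in DR against Rapa, and with probes above background on every array 1 in Rapa against AL and 2 in Rapa + DR against DR. Array weights gave 1 in Rapa against AL, 2 in Rapa + DR against DR and 1 in Rapa + DR against Rapa. The background level as a covariate gave 0 in Rapa + DR against DR, 1 in Rapa + DR against Rapa and 2 in DR against Rapa, and the array SD, chosen after seeing the data, 2 in Rapa + DR against DR. The methods' pairwise comparisons without moderation gave 0 in Rapa against AL and 1 in Rapa + DR against Rapa, as did a median change over 30%. An adjusted p under 0.001 left 1 in DR against AL, 1 in DR against Rapa and 0 in Rapa against AL, Rapa + DR against AL, Rapa + DR against DR and Rapa + DR against Rapa. Leaving out each mouse in turn, chosen after seeing the data, gave 2 to 4 in DR against AL, 0 to 2 in Rapa against AL, 2 to 4 in Rapa + DR against AL, 0 to 2 in Rapa + DR against DR, 1 to 2 in Rapa + DR against Rapa, 2 to 5 in DR against Rapa and 0 for the interaction. The cause of these shifts was not tested.

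Mice share only a number across groups, since the 67 same-numbered pairs had a mean correlation of -0.0087 (-0.60 to 0.66) against 0.0028 for other pairs. With the replicate block 3 probes were called in DR against AL, 1 in Rapa against AL, 2 in Rapa + DR against AL, 0 in Rapa + DR against DR, 1 in Rapa + DR against Rapa, 3 in DR against Rapa and 0 for the interaction.

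Some directions turned. Fads1 came to 0.11 in DR against AL and 0.13 in Rapa + DR against AL with centring only. In Rapa + DR against Rapa, at -0.18 as reported, it came to 0.0786 with quantile normalization and 0.0787 with normexp. There it was 0.11 with the array SD as a covariate and 0.44 with centring only. The last of these was called higher (limma, adjusted p = 0.0194). Scd1 came to 0.0365, 0.0366 and 0.28 in Rapa + DR against AL with quantile normalization, normexp and centring only, and to 0.18 in Rapa + DR against Rapa with centring only. Centring only also turned Slc25a1 in Rapa + DR against Rapa (0.11) and Cyb5r3, whose probes disagree in sign, in DR against Rapa (0.00915). Among all called probes the share higher was 62.9% in DR against AL, and 49.6% with quantile normalization and 79.0% with centring only. It was 64.1%, 50.3% and 76.4% in Rapa + DR against AL, 84.6%, 69.7% and 98.3% in Rapa + DR against DR, 66.0%, 53.5% and 79.0% in Rapa + DR against Rapa and 60.7%, 52.9% and 80.2% in DR against Rapa. On the 41 member values tracked, 328 alternatives kept direction and side of the threshold, 52 lost a call, 17 gained one and 10 turned the direction. The other 36 member values, under 0.3 and called in no setting, were left out of that tally, and of their 349 alternatives 38 had the other sign. On 103 values of other genes 958 alternatives kept direction and call, 58 lost the call (26 of them with centring only and 8 with the background level as a covariate) and 2 turned the direction. Dim probes (Fasn, Gpam) limit what the arrays can show.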
